A study of Mus musculus with 15 samples.

Results

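Gene expression was measured in whole hearts of 5 rosiglitazone-treated diabetic mice and 5 nondiabetic mice, which are 10 of the 15 arrays of the study. The treated mice were db/db (C57BL/KLS-leprdb/leprdb), with both copies of the leptin receptor gene mutated, and were fed chow mixed with rosiglitazone at 5 mg/kg/day for 4 months. The nondiabetic mice were their db/+ littermates (C57BL/KLS-leprdb/lepr+), which carry 1 mutated copy and had no drug. The 5 remaining arrays hold hearts of untreated db/db mice. Their values are given for part of the genes and lists below, because treated db/db and db/+ mice differ in both genotype and drug. Where they are not given, a difference is not to be read as particular to treated hearts. The 10 arrays were chosen by their titles alone. Ages and sexes were not given in the sources used here. Each heart's RNA was labeled with Cy5 and hybridized on a 2-color mouse array against a Cy3-labeled universal mouse reference, so each value below is a log2 ratio of heart to reference, and a difference is the treated mean minus the db/+ mean of those ratios.

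Mice that lack the signaling form of the leptin receptor overeat and become obese, insulin resistant and diabetic, and their hearts receive more fatty acid from the blood. Rosiglitazone is a thiazolidinedione that activates PPAR gamma, a nuclear receptor abundant in fat, where it drives genes of fatty acid uptake and storage. The heart itself expresses more of the related receptor PPAR alpha, which is activated by fatty acids and drives genes of their oxidation in mitochondria and peroxisomes. The comparison of treated db/db with db/+ hearts asks which transcripts still stood away from the nondiabetic level after the treatment.

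The tissue label held: all 8 cardiomyocyte markers (among them Myh6, Tnni3, Myl2 and Pln) were well above background on every array of both groups. Their level was uneven among db/+ hearts: the median of the 8, relative to the db/+ mean, ran from -2.137 on array 2 to 1.04 on array 3, against -0.502 to 0.1577 on the treated arrays. The median heart signal was 158.7 to 256.5 units in db/+ hearts, 234.5 to 302.5 in treated hearts and 185.2 to 263.2 in untreated hearts. Treated arrays 3 and 4 held nearly the same profile, with a median absolute difference of 0.1253 between their log2 ratios against 0.2265 to 0.5943 for the 29 other pairs within a group, so their mean was used as 1 sample and the fit held 4 treated and 5 db/+ samples. No slide held both groups: db/+ arrays 1 to 4 filled a slide, db/+ array 5 shared the next with untreated arrays, treated arrays 1 and 2 shared another with untreated arrays, and treated arrays 3 to 5 lay on the last. Slide and group can therefore be separated only by way of the untreated arrays. The mutated gene, Lepr, was read by a probe that need not cover the mutated part and gives no check of genotype; its difference was -0.84 ± 0.36 (SE), with a limma adjusted p of 0.16.

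Of 27593 probes tested, 2401 (8.7%) passed an adjusted p of 0.05 between treated db/db and db/+ hearts, 1239 of them higher and 1162 lower in treated hearts, and 542 of these differed by more than 2-fold. Counted as genes, with the brightest probe standing for each, 763 of 15224 (5.01%) were higher and 706 (4.64%) lower, and the median difference over all genes was 0.00179. Every treated array lay above every db/+ array for 7.92% of the genes and below every db/+ array for 7.07%. The untreated hearts, set against the same db/+ arrays in the same fit, were higher for 4.66% of the genes and lower for 3.95%. Leaving out db/+ array 4 left 1437 probes, and leaving out treated array 1, 2 or 5 left 1178, 1278 or 1093. Background correction by normexp in place of the scanner's own turned the split to 944 higher and 398 lower. With the slide as a block, 4 probes passed, none of them higher, although 2354 of the 2401 (98%) kept their sign and their median absolute difference was 0.532 against 0.66 without it. No gene named below passed with that block, so every adjusted p in the text comes from the fit without it, and part of any difference may belong to the slides.

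**Figure D1:**
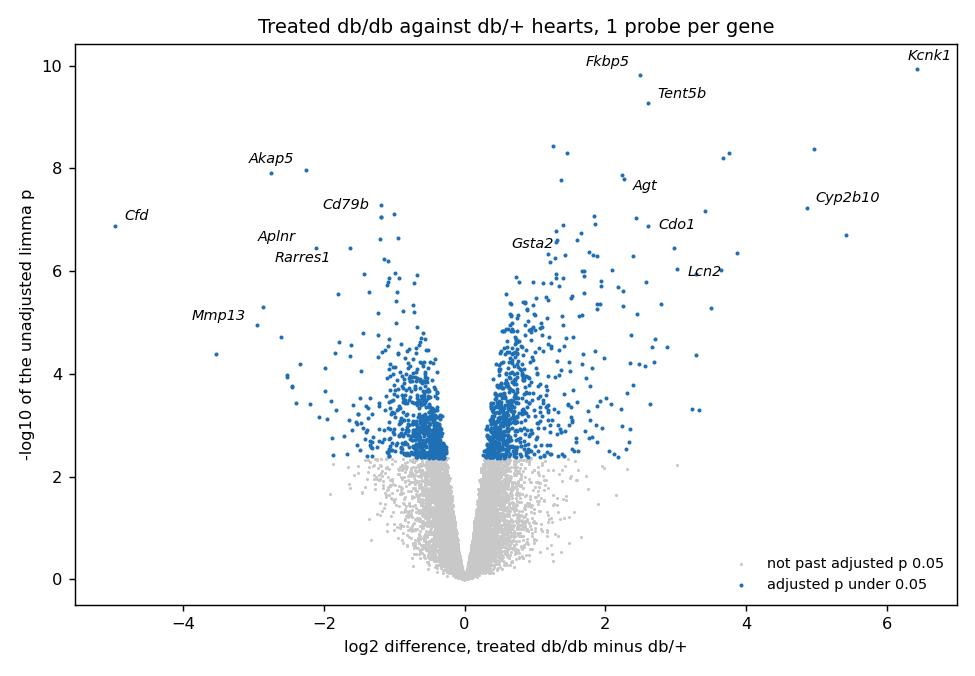
Each point is 1 of 15224 genes, with the log2 difference of treated db/db minus db/+ hearts on the x axis and -log10 of the unadjusted limma p on the y axis; blue points passed an adjusted p of 0.05. The 763 higher and 706 lower genes spread to both sides, with Kcnk1 at 6.43 and Cfd at -4.96 at the ends. After normexp Kcnk1 gave 3.25 and Cfd -1.245, so the sizes of these differences are uncertain.

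Many genes of fatty acid oxidation stood higher in treated hearts than in db/+ hearts. In the list of peroxisome genes, 11 of 33 rose and none fell, and the median difference was 0.26. In untreated hearts, against the same db/+ arrays, 10 rose and none fell, with a median of 0.29. For 14 of the 33, every treated array lay above every db/+ array. The genes that rose included Cat, whose product catalase removes the hydrogen peroxide that peroxisomal oxidation makes, at 0.68 ± 0.10 (SE; adjusted p = 0.00207), Ehhadh, a bifunctional enzyme of that oxidation, at 0.72 ± 0.15 (adjusted p = 0.0112), and Pex11a, which takes part in peroxisome division, at 0.55 ± 0.10 (adjusted p = 0.00487). On the single arrays, Pex11a read 1.08, 1.28, 1.28, 1.16 and 1.1 in db/+ hearts and 1.90, 1.69, 1.59, 1.62 and 1.71 in treated hearts. The groups did not overlap, and the untreated arrays, at 1.79 to 2.15, all lay above treated arrays 2 to 5. Without treated array 1 or without treated array 5, 6 peroxisome genes passed in place of 11, as without treated arrays 3 and 4 together, and 7 passed with only the compared groups in the fit, and the list's median over the omission of any 1 array ranged from 0.24 to 0.30.

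All 23 genes of mitochondrial fatty acid uptake and oxidation were higher in treated hearts by sign, with a median of 0.39, and 6 passed the test. In untreated hearts, against the same db/+ arrays, 9 rose and none fell, with a median of 0.48. Cpt2, which rebuilds acyl-CoA inside the mitochondrion, differed by 0.75 ± 0.13 (adjusted p = 0.00545). Acadl, the long-chain acyl-CoA dehydrogenase, differed by 0.58 ± 0.16 (adjusted p = 0.0427). For the 32 tested subunits of oxidative phosphorylation the median was 0.19 and none passed in limma, while 2 rose after normexp and 2 without db/+ array 5. At an unadjusted limma p under 0.05, 7 were higher and 0 lower. The share of all genes at that unadjusted threshold was not counted, and 5.01% were higher at the adjusted one, so the 7 are not read as a rise. Their median on the arrays was -0.8343 on db/+ array 2 and -0.0283 to 0.2451 on the other db/+ arrays, which overlapped the treated range of 0.0669 to 0.308. The number of mitochondrial genes that passed dropped to 3 without db/+ array 4, to 2 without treated array 1, to 3 without treated array 2 and to 2 without treated array 5. The median of the 23 genes on each array, relative to the db/+ mean, was -0.565, 0.00178, 0.07198, 0.1008 and 0.3269 on the db/+ arrays in rising order and 0.3083 to 0.4747 on the treated arrays, so db/+ array 5 lay above treated array 2. Cardiomyocyte markers were lowest on db/+ array 2 as well, and their part in these values was not tested. With scaling between arrays 3 mitochondrial genes passed, and without treated arrays 3 and 4 together 2 did. Acadl passed only with all arrays or without db/+ array 5, untreated array 2 or 4 or treated array 3 or 4, and its adjusted p reached 0.09499 without treated array 1.

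Genes that PPAR alpha is known to induce rose in 8 of 29 cases and fell in none, with a median difference of 0.38. In untreated hearts, compared with the same db/+ arrays, 11 rose and 1 fell, with a median of 0.63. Acot1, a cytosolic thioesterase that frees fatty acids from coenzyme A, read -0.17, 0.60, -0.15, 0.05 and 0.49 on the db/+ arrays and 1.98, 1.32, 1.66, 1.65 and 1.65 on the treated arrays. The groups did not overlap, and the difference was 1.49 ± 0.36 (SE; adjusted p = 0.0226). The untreated arrays read 1.55 to 3.61, with a mean 2.50 above the db/+ mean. Its mitochondrial relative Acot2 differed by 0.85 ± 0.19 in treated hearts and by 1.34 ± 0.18 in untreated hearts. Angptl4, a secreted inhibitor of lipoprotein lipase, differed by 2.12 ± 0.61 (adjusted p = 0.046) in treated hearts and by 2.86 ± 0.57 in untreated hearts. Between treated and untreated hearts 8 of the 29 genes were lower at an unadjusted p under 0.05, where 4.78% of all genes were, and none was higher, where 4.25% were. These shares are 728 genes lower and 647 higher by limma, and no gene passed an adjusted p of 0.05 in that comparison, where the lowest was 0.0826, for Kcnip4. Hepatocyte markers, which hearts should lack, were high on some of the same arrays. Of 15 tested, 2 rose against db/+ in treated and 5 in untreated hearts, and 7 were lower in treated than in untreated hearts at an unadjusted p under 0.05. Their median relative to the db/+ mean was 2.105, 4.121, 3.481, 0.2075 and 2.43 on the untreated arrays, 2.552 on treated array 1 and -0.3089 to 0.4807 on the other treated arrays. No db/+ array measured 5 of the markers above background and no treated array measured 2 of them, with Fga, a fibrinogen chain, among both, and the part of liver transcripts in the PPAR alpha list was not tested. The count of 8 that rose against db/+ was 5 with scaling between arrays, 4 beside 1 that fell without treated arrays 3 and 4 together, 3 without treated array 1 and 4 without treated array 5, and without db/+ array 1 a member also fell. Acot1 did not pass without treated array 1 (adjusted p = 0.06936) or treated array 5. Angptl4 did not pass after normexp (1.81, adjusted p = 0.0898) or without any db/+ array, untreated array 3 or 4, or treated array 1, 2 or 5, where its adjusted p reached 0.1078.

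The receptor bound by the drug, Pparg, was 0.53 ± 0.11 higher in treated than in db/+ hearts (adjusted p = 0.0108) and 0.56 ± 0.10 higher in untreated hearts. It was the 1 member called among 19 PPAR and RXR receptors and coactivators, of which 3 rose after normexp and 2 without untreated array 5. Of 26 genes that PPAR gamma is known to induce in adipocytes, 5 rose and 2 fell, with a median of 0.22. Untreated hearts, set against the same db/+ arrays, gave the same counts, with a median of 0.15. The median difference of treated from untreated hearts was -0.041. Acsl1, which activates long-chain fatty acids with coenzyme A, rose by 1.0 ± 0.15 (adjusted p = 0.00202), and a dimmer probe of the gene gave 0.4927 (adjusted p = 0.07326). The 2 genes that fell in treated hearts were those of secreted adipocyte proteins. Cfd, the complement protease adipsin, read 3.63 to 5.88 in db/+ and -0.77 to 0.27 in treated hearts, but its heart signal was well above background on 1 of 5 treated arrays and its difference after normexp was -1.25 (adjusted p = 0.0795). Adipoq, the hormone adiponectin, was at least 3.80-fold lower, above background on 4 db/+ arrays and on no treated array, and after normexp its difference was -0.35 (adjusted p = 0.126). Such lower bounds, here and below, are ratios of heart-channel signals after loess and Aquantile normalization in which the dimmest signal that was well above background replaces any weaker signal, and dye bias may enter them. The white adipocyte markers Retn and Lep were not above background on any array of either group, and the part of fat tissue on the hearts in these values was not tested. Whole hearts also hold several cell types, so fewer cells of a type and less RNA per cell cannot be told apart. The fatty acid carriers of the list varied widely between db/+ hearts: Cd36, the membrane carrier, read 4.52 to 6.51 in db/+ and 5.53 to 5.89 in treated hearts, with a difference of 0.27 ± 0.29 (adjusted p = 0.595). In treated hearts the count of 5 that rose was 3 with scaling between arrays and 2 without treated arrays 3 and 4 together. It was 3 without db/+ array 2, 1 without db/+ array 3 and 2 without db/+ array 4. It was 3 without untreated array 4, 1 without treated array 1, 1 without treated array 2 and 2 without treated array 5.

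Genes of lipid droplets and glycerolipid assembly were mixed. Of 20 genes of lipid droplets and their lipases 3 rose and none fell, and of 26 genes of fatty acid and triglyceride synthesis 4 rose and 3 fell. Plin4, a coat protein of lipid droplets, read 3.51 to 4.02 in db/+ hearts, 4.71 to 5.0 in treated hearts and 4.55 to 4.95 in untreated hearts. Its difference of 1.19 ± 0.13 (adjusted p = 0.000208) separated every treated from every db/+ array. Plin3, another coat protein, differed by 0.75 ± 0.13 (adjusted p = 0.00383). Gpam, the mitochondrial acyltransferase that starts glycerolipid synthesis, differed by 0.57 ± 0.12 (adjusted p = 0.0119, and 0.066 after normexp), and Agpat3, which acts on its product, by 0.62 ± 0.09 (adjusted p = 0.00198). Elovl6, which elongates saturated fatty acids made in the cell, was lower by -1.02 ± 0.21 (adjusted p = 0.0126). Fasn, the fatty acid synthase, gave 0.47 ± 0.18 and did not pass (adjusted p = 0.123). Without treated array 1 or treated array 5, 1 synthesis gene fell in place of 3, as with scaling between arrays, and without db/+ array 1 the droplet genes gave 2 that rose and 1 that fell.

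Liver X receptors respond to cholesterol and drive genes of its export and of lipid synthesis. Of 15 genes of cholesterol efflux and liver X receptor targets, 6 rose and none fell, with a median of 0.25, and in untreated hearts 4 rose. Abca1, the transporter that loads cholesterol onto apolipoprotein A-I, read 0.96, 0.46, 0.68, 0.80 and 0.49 on the db/+ arrays and 1.44, 1.20, 1.94, 1.87 and 1.85 on the treated arrays. The untreated arrays spread from -0.07 to 1.22 and overlapped both groups, while every treated array lay above every db/+ array. Abca1 was thus 0.92 ± 0.23 higher in treated than in db/+ hearts (adjusted p = 0.0296), -0.16 ± 0.22 from db/+ in untreated hearts, and 1.08 ± 0.23 higher in treated than in untreated hearts (unadjusted p = 0.000436, adjusted p = 0.385). Abcg1, which passes cholesterol to mature lipoprotein particles, read -2.23 to -1.65 in db/+, -2.72 to -1.79 in untreated and -1.42 to -0.83 in treated hearts. Its difference from db/+ was 0.80 ± 0.20 (adjusted p = 0.0256), but 0.28 after normexp (adjusted p = 0.491). Abca1 did not pass without db/+ array 2, 3, 4 or 5 or treated array 1 or 5, with an adjusted p of up to 0.0882, nor did Abcg1 without db/+ array 3 or treated array 1 or 2, with up to 0.05851.

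The 6 that rose also included targets that do not export cholesterol. Mylip, a ubiquitin ligase for the low-density lipoprotein receptor, differed by 0.83 ± 0.14 (adjusted p = 0.00394) in treated and by 0.47 ± 0.13 in untreated hearts. Srebf1, the transcription factor of fatty acid synthesis genes, differed by 1.11 ± 0.24 (adjusted p = 0.0137) and Lpcat3, which puts polyunsaturated fatty acids into phospholipids, by 0.85 ± 0.12 (adjusted p = 0.000885). The receptor Nr1h3 itself gave 0.25 ± 0.13 and did not pass (adjusted p = 0.239). Of 23 genes of cholesterol synthesis and uptake none rose and 2 fell, with a median of -0.105. The count of 6 was 3 without db/+ array 3 and 3 without treated array 1 or without treated arrays 3 and 4 together, and without db/+ array 1 a member also fell. For the cholesterol synthesis genes, no call was left without db/+ array 2, without db/+ array 4, without treated array 1 or without treated array 5, 1 was left with scaling between arrays, without treated arrays 3 and 4 together, without untreated array 1, 3 or 4 or without treated array 2, 5 fell without db/+ array 1, and 1 rose with none lower without db/+ array 3.

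**Figure D2:**
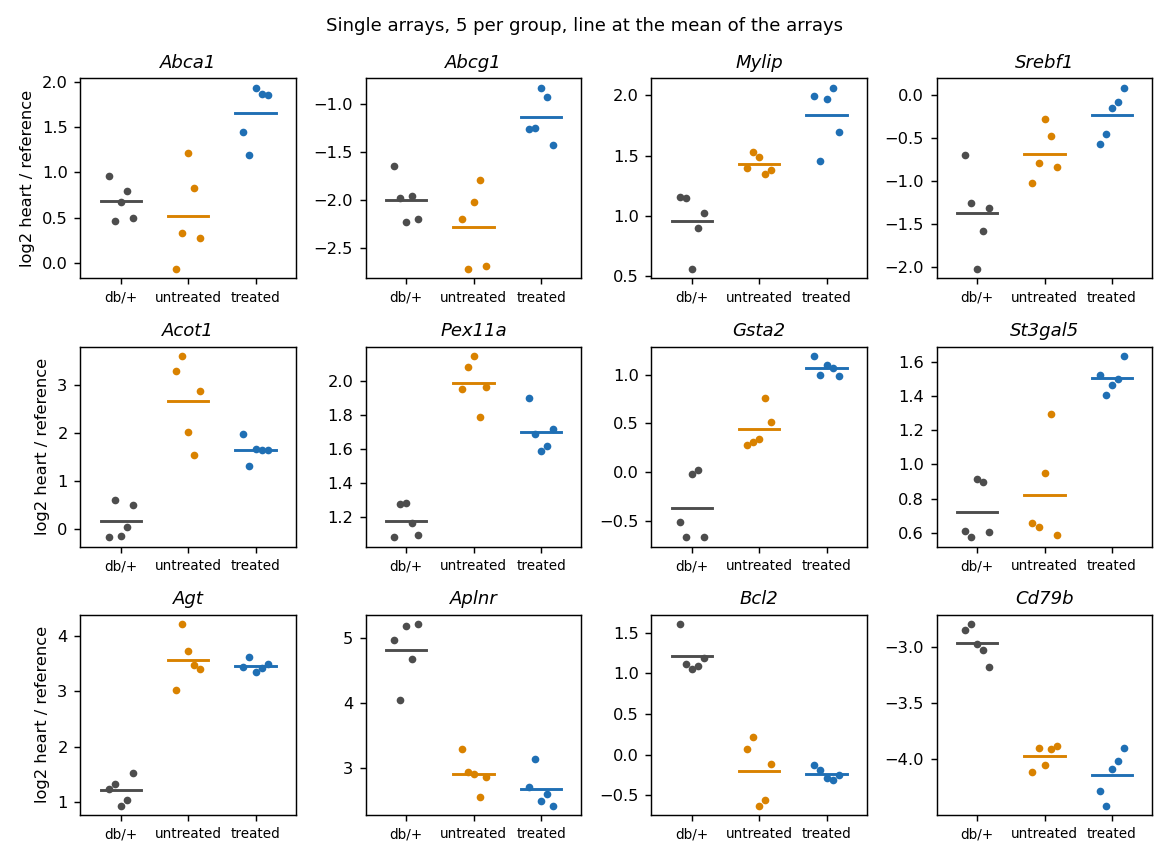
Log2 ratio of heart to reference RNA for 12 genes on every array, 5 arrays each of db/+, untreated db/db and treated db/db hearts, with a line at the mean of the arrays. Every treated array of Abca1, Abcg1 and St3gal5 lies above every db/+ array while their untreated means differ from db/+ by -0.16, -0.28 and 0.10, whereas Agt, Aplnr, Bcl2 and Cd79b lie away from db/+ in both db/db groups.

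Of 29 uncoupling proteins and antioxidant genes 11 rose, none fell and 18 did not pass, 9 had lower means, and the median was 0.24. In untreated hearts, against the same db/+ arrays, 10 rose and none fell, with a median of 0.17. The genes named here are antioxidant and conjugating enzymes. Gsta2, a glutathione S-transferase that conjugates reactive lipid products, read -0.51, -0.67, -0.01, 0.03 and -0.66 on the db/+ arrays and 1.19, 0.99, 1.1, 1.07 and 0.99 on the treated arrays. The untreated arrays lay between, at 0.28 to 0.76, and overlapped neither group. The difference of treated from db/+ hearts was 1.43 ± 0.16 (adjusted p = 0.000212), against 0.81 ± 0.15 for untreated hearts. Its close relative Gsta1 gave 1.30 ± 0.16 (adjusted p = 0.000425), and such near-identical genes may share probe signal. Gstm2, of another class of these enzymes, was 0.63 ± 0.15 higher in treated hearts (adjusted p = 0.0201) and 0.03 ± 0.14 higher in untreated hearts. The metal-binding metallothionein Mt1 rose by 1.15 ± 0.24 (adjusted p = 0.011) and the extracellular superoxide dismutase Sod3 by 1.18 ± 0.26 (adjusted p = 0.0144, and 0.0623 after normexp). Txnip, which binds and inhibits thioredoxin and responds to glucose, rose by 1.27 ± 0.28 (adjusted p = 0.0155), although db/+ array 1, at 1.72, lay above treated array 2, at 1.66. The number that rose ranged from 8 to 11 over the omission of any 1 array, and 2 genes fell without db/+ array 2. Gstm2 did not pass without treated array 1 (adjusted p = 0.06376) or treated array 5.

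Cytosolic ribosomal protein genes were lower in treated hearts. All 32 tested genes had lower means than in db/+ hearts, 22 passed the test, and the median difference was -0.65. For 24 of them every treated array lay below every db/+ array. In untreated hearts 1 of the 32 passed against db/+ and the median was -0.20, and between treated and untreated hearts 23 were lower at an unadjusted p under 0.05, with a median of -0.45. Rpl10, a protein of the large subunit, read -0.93, -1.12, -0.75, -0.74 and -0.97 on the db/+ arrays and -2.03, -1.80, -1.77, -1.63 and -1.95 on the treated arrays. The treated arrays lay wholly below, with a difference of -0.97 ± 0.14 (adjusted p = 0.00164), and in untreated hearts the difference was -0.47 ± 0.13 (adjusted p = 0.0477). Rpl5, which carries 5S RNA into the large subunit, differed by -0.89 ± 0.18 (adjusted p = 0.0112). Rpl3, of the large subunit's core, differed by -0.73 ± 0.18 (adjusted p = 0.0255), with -0.05 ± 0.17 in untreated hearts. Rpl3 did not pass after normexp (adjusted p = 0.089) or without db/+ array 3 or 4 or treated array 1 or 2, with an adjusted p of up to 0.07822.

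The ribosomal protein probes are bright, and none was saturated. Among the 4793 genes at least as bright as the dimmest of the 32, the median difference was 0.000809 and 222 (4.63%) were lower. The genes have many near-identical pseudogenes, so a probe may read more than 1 locus, and Rps18, called at -0.90 by its brightest probe, gave -0.84 and -0.04 at others, and the brightest did not pass after normexp (adjusted p = 0.0705) or without treated array 2 (adjusted p = 0.05714). Within the slide that held both treated and untreated arrays, all 32 were lower in the treated hearts, with a median of -0.394. Within the slide that held db/+ array 5 and untreated arrays the median was 0.148 in untreated hearts, and with the slide as a block the median for treated hearts was -0.226. After normexp the median was -0.69 with 5 genes passing. The number that passed was 14 with scaling between arrays, 10 without treated arrays 3 and 4 together, 14 without db/+ array 3, 9 without db/+ array 4, 8 without treated array 1, 6 without treated array 2 and 10 without treated array 5, and over the omission of any 1 array the median ranged from -0.73 to -0.56.

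**Figure D3:**
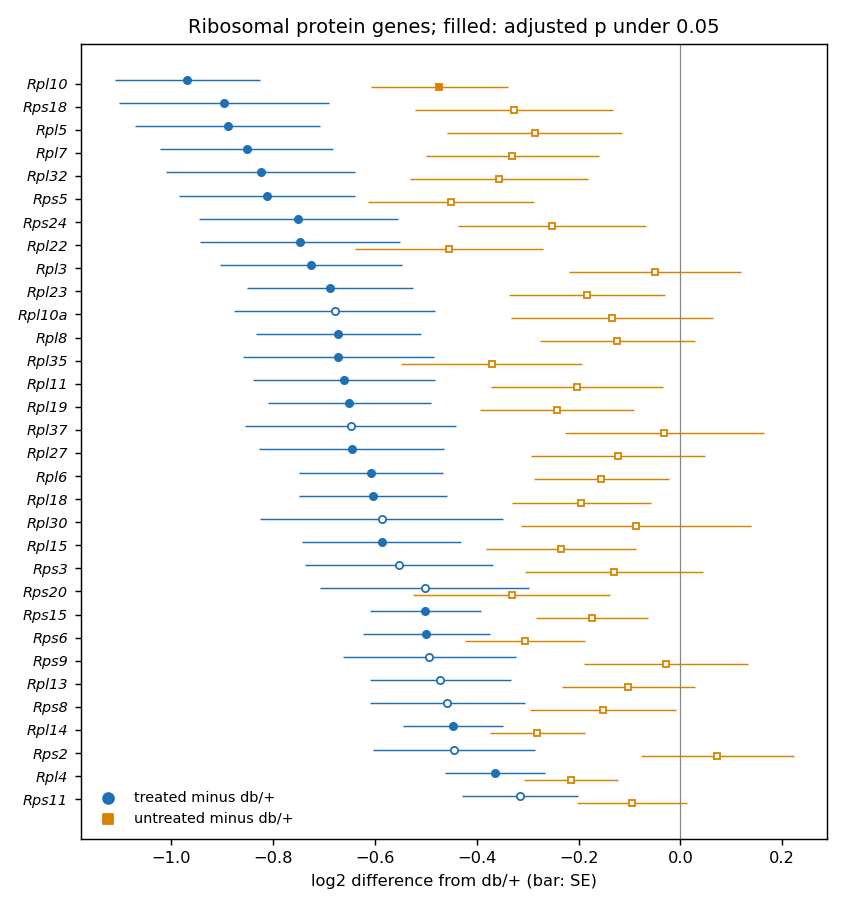
Log2 difference from db/+ hearts of 32 cytosolic ribosomal protein genes, as circles for treated db/db and squares for untreated db/db hearts, with SE bars and filled symbols where the adjusted p was under 0.05. All 32 circles lie below 0, with 22 of them filled, and 1 of the squares is filled.

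The chaperones and disulfide isomerases that fold proteins in the endoplasmic reticulum were also lower. When unfolded proteins build up there, cells normally raise these genes through the sensors ATF6, IRE1 and PERK. Of 32 genes of protein targeting, folding and the unfolded protein response 13 fell and 2 rose, with a median of -0.27. In untreated hearts, against the same db/+ arrays, 6 fell and 2 rose, with a median of -0.26. The median difference of treated from untreated hearts was -0.09. Manf, a secreted protein of the stress response, read -1.48, -0.63, -0.53, -0.73 and -0.86 in db/+ and -1.73, -1.69, -1.81, -1.81 and -1.93 in treated hearts. The groups did not overlap and differed by -0.94 ± 0.16 (adjusted p = 0.00369), with -0.80 ± 0.15 in untreated hearts. Hsp90b1, the chaperone GRP94, differed by -0.91 ± 0.23 (adjusted p = 0.0272), and a further probe gave -0.63 (adjusted p = 0.18), and after normexp its adjusted p was 0.0598. Hspa5, the chaperone BiP that holds the sensors inactive, read -0.13 to 0.80 in db/+ and -0.31 to -0.08 in treated hearts, so db/+ array 1 lay within the treated range. Its difference was -0.61 ± 0.17 (adjusted p = 0.0379), and -0.601 after normexp (adjusted p = 0.0756). The 2 members that rose in treated hearts were Herpud1, a membrane protein of the degradation of misfolded proteins, at 1.01 ± 0.14 (adjusted p = 0.00131), and the sensor Atf6, at 0.43 ± 0.10 (adjusted p = 0.0172). After normexp 5 genes fell, and with only the compared groups in the fit 6 fell and 1 rose. The 13 that fell were 7 without treated arrays 3 and 4 together, 6 without db/+ array 4, 5 without treated array 1, 7 without treated array 2 and 4 without treated array 5, which also left 1 that rose. Hspa5 did not pass without db/+ array 3, 4 or 5 or treated array 1, 2 or 5, with an adjusted p of up to 0.08549. Hsp90b1 did not without db/+ array 4 or treated array 1, 2 or 5, with up to 0.06433, nor Atf6 without treated array 5 (0.05336).

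The promoters of such chaperones carry the ER stress response element, in which CCAAT and CCACG stand 9 bases apart. It was searched on both strands in the 250 bases before each gene's start in RefSeq (GRCm38.p6). Of 27025 genes with such a window, 35 (0.13%) held it, as did 19 of the 12080 tested ones (0.157%). In the list 28 tested genes had a window, and it was found in 4 of 12 that fell and in 4 of 16 that did not. The windows of the 4 that fell are shown, and they were picked for that call. Each reads 5′ to 3′ on the gene's strand and ends at the base before the start, with the element in capitals. They lie at chr2:34771840-34772089 (plus strand) for Hspa5, chr10:86705445-86705694 (minus) for Hsp90b1, chr12:17266339-17266588 (plus) for Pdia6, a disulfide isomerase, and chr15:88819396-88819645 (plus) for Creld2, a secreted folding factor.
Hspa5: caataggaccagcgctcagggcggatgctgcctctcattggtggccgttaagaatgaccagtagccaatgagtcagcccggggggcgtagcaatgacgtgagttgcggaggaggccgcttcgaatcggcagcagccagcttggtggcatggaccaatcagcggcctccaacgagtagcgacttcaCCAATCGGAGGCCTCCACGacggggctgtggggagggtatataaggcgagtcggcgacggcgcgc
Hsp90b1: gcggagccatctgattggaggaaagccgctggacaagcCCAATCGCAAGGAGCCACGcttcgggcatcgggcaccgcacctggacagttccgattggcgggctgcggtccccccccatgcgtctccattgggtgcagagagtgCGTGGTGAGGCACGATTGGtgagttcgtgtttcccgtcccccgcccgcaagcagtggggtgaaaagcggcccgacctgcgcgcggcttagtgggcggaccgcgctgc
Pdia6: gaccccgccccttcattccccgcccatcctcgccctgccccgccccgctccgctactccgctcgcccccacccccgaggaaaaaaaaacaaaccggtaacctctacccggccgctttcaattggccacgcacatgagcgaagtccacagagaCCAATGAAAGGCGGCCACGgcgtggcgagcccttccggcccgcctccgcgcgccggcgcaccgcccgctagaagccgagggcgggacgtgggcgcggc
Creld2: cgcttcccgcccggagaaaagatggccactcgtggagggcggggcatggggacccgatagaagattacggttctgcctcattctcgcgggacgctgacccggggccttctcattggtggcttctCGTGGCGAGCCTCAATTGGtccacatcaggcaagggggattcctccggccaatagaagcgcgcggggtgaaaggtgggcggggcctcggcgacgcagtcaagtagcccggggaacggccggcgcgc
Pdia6 differed by -0.78 ± 0.16 (adjusted p = 0.0118) and Creld2 by -0.68 ± 0.14 (adjusted p = 0.0132), each without the value of db/+ array 2, whose spot was flagged. Further probes of Pdia6 gave -0.60 (adjusted p = 0.0887) and -0.27 (adjusted p = 0.328). Calr, which holds the element too, gave -0.244 and did not pass. A match describes letters in the window and no binding was measured.

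Interferon response genes were lower as well. Of 27 tested genes of this response and of MHC class I, 8 fell and none rose, all 27 had lower means in treated hearts, and the median was -0.72. In untreated hearts 10 fell, with a median of -0.54. Oas1a, which senses double-stranded RNA, read -0.51, -0.39, -0.18, -0.37 and -0.47 in db/+ and -1.33, -0.96, -1.19, -1.13 and -1.31 in treated hearts. The treated arrays lay below all db/+ arrays, with a difference of -0.80 ± 0.14 (adjusted p = 0.00564). Ifi44, a strongly induced gene of unsettled function, differed by -1.62 ± 0.28 (adjusted p = 0.00402) but was above background on 3 of 5 treated arrays and did not pass after normexp (-0.91, adjusted p = 0.132). Isg15, a ubiquitin-like protein attached to other proteins, differed by -0.86 ± 0.17 (adjusted p = 0.00816). Ifit1, which binds viral RNA, differed by -1.34 ± 0.36 (adjusted p = 0.037), and by -0.929 after normexp (adjusted p = 0.0825). The arrays were uneven: the list's median relative to the db/+ mean was 0.00093 on treated array 2 and 0.68 on untreated array 4. The 4 other treated arrays lay between -1.13 and -0.75. Treated array 2 and untreated array 4 shared a slide with treated array 1, at -1.125, and untreated array 5, at -0.91. The 8 that fell were 5 without treated array 5 and 3 after normexp. Ifit1 did not pass without db/+ array 3 or 4 or treated array 1 or 5, with an adjusted p of up to 0.1061.

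Interferon-induced promoters carry the interferon-stimulated response element, here searched as GAAA and GAAAC with 2 bases between them. In the same windows 215 of 27025 genes (0.796%) held it on either strand, as did 98 of the 12080 tested ones (0.811%). It was present in 3 of 6 genes of the list that fell and had a window, and in 5 of 16 that did not fall. The windows of those 3 are shown, with the element in capitals, at chr19:34640639-34640888 (plus strand) for Ifit1, chr4:156200819-156201068 (minus) for Isg15 and chr5:120907526-120907775 (minus) for Oas1a.
Ifit1: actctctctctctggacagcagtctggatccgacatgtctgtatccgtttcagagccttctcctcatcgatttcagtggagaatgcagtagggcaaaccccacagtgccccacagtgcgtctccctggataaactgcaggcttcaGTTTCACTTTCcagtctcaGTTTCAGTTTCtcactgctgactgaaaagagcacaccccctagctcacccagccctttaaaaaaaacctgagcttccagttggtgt
Isg15: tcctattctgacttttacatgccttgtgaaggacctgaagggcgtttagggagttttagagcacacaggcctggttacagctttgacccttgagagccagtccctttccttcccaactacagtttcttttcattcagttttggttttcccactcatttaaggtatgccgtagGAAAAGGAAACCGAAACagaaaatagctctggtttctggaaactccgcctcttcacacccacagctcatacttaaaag
Oas1a: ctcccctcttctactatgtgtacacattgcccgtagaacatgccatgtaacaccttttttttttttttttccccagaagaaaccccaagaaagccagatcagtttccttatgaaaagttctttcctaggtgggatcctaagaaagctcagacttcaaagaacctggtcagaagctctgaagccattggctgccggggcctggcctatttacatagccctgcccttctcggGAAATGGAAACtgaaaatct

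Lymphocyte transcripts were lower too. Of 10 tested B cell markers 6 fell and none rose, with a median of -0.86, and in untreated hearts 6 fell with a median of -0.79. Cd79b, a signaling chain of the B cell receptor, read -2.85, -2.80, -2.98, -3.03 and -3.19 in db/+ and -4.28, -4.41, -4.09, -4.01 and -3.90 in treated hearts, which did not overlap, and differed by -1.19 ± 0.12 (adjusted p = 7.19e-05). Ms4a1, the surface antigen CD20, differed by -1.79 ± 0.23 (adjusted p = 0.000679). Cd79a, the partner chain of Cd79b, gave 0.56 ± 0.35 and did not pass. The markers Pax5 and Fcrla were not above background on any treated array, while Blk was above it on at least 1 treated array and on no db/+ array. In each group 6 of the 12 B cell markers were above background on every array. The list's median relative to the db/+ mean lay between -1.08 and -0.76 on the treated arrays and between -0.13 and 0.17 on the db/+ arrays. Among 12 T and NK cell markers 2 fell, of which the protease gene Gzma, at -2.45 ± 0.48, was above background on 1 treated array. Of 9 MHC class II genes and related markers 2 fell, H2-Eb1, a chain of the antigen-presenting molecule, by -1.60 ± 0.40 (adjusted p = 0.0255) and Cd83, a marker of mature dendritic cells, by -1.45 ± 0.22 (adjusted p = 0.00217). The part of cell numbers in the interferon values was not tested. After normexp 1 B cell marker passed and no marker of T and NK cells or MHC class II, with differences of -0.61 for H2-Eb1, -0.21 for Cd83 and -1.73 for Ms4a1. H2-Eb1 did not pass without db/+ array 3 or treated array 1 or 5, with an adjusted p of up to 0.08074. The T and NK cell count was 1 without db/+ array 1, 4 or 5 or treated array 1 or 5, and the MHC class II count was 4 without untreated array 4 and 1 without db/+ array 3 or treated array 1 or 5. Among B cell markers, 1 marker rose without untreated array 5.

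**Figure D4:**
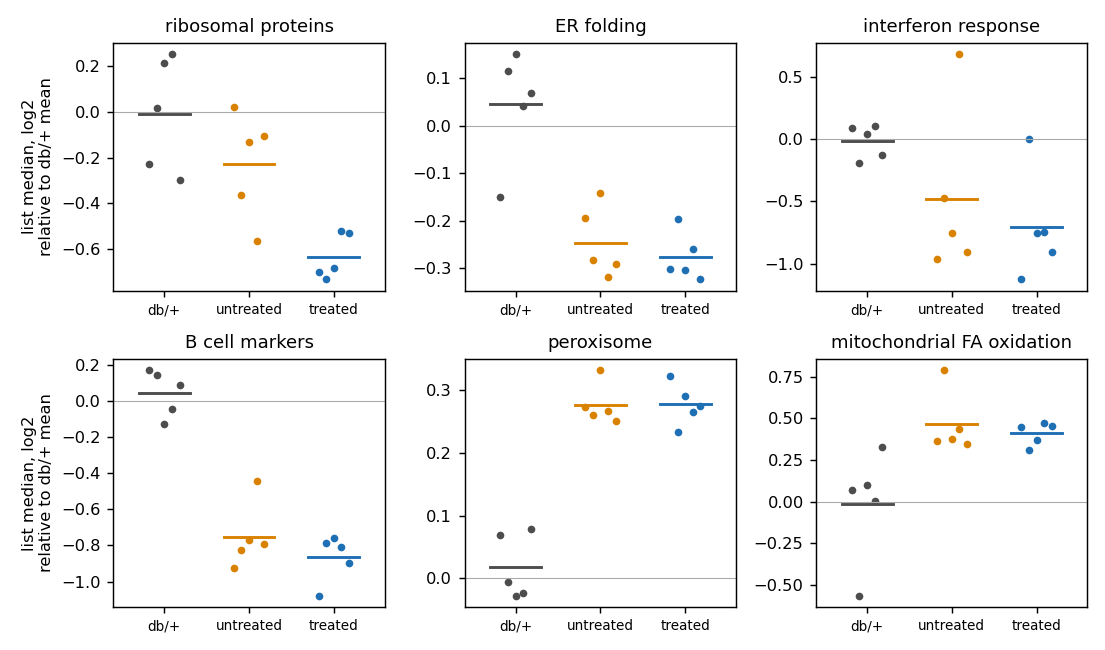
Median over the genes of 6 lists on each of the 15 arrays, as a log2 difference from the db/+ mean, by group. The ribosomal and B cell medians of the 5 treated arrays lie below those of all db/+ arrays, whereas treated array 2 and untreated array 4 stand apart from their groups for interferon genes.

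Neutrophil granule genes went the other way. Of 12 markers 8 were tested, and 4 rose and none fell, with a median of 1.74. On the arrays that median was 2.65 on treated array 2 and 0.9325 to 1.408 on the other treated arrays. In untreated hearts 3 rose and none fell, with a median of 0.82. Signal in any 1 group sufficed for testing, so markers dim in db/+ hearts could enter through db/db hearts. In db/+ hearts 6 of the 12 were above background on every array, against 8 in treated hearts. Lcn2, an iron-scavenging protein that other cells also make, rose by 3.02 ± 0.36 (adjusted p = 0.000343). Mmp8, the neutrophil collagenase, gave 2.88 ± 0.47 (adjusted p = 0.00329), with a signal above background on 1 of 5 db/+ arrays. After normexp 2 of the markers rose and Mmp8 gave 0.64 (adjusted p = 0.131), and 1 marker fell without db/+ array 5 or treated array 2. The other markers that rose were Chil3 and Ltf. Chil3 gave -0.118 after normexp (adjusted p = 0.899). Ltf lost its call on leaving out any 1 of 11 arrays, with an adjusted p of up to 0.1309.

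Ceramides and gangliosides are sphingolipids of the cell membrane that are known to accompany insulin resistance. Of 35 tested genes 7 rose and none fell, but the median was 0.07. In untreated hearts, against the same db/+ arrays, 3 rose and 1 fell, with a median of 0.08. St3gal5, the sialyltransferase that makes the ganglioside GM3, read 0.61, 0.57, 0.92, 0.90 and 0.61 in db/+, 0.66, 0.63, 0.95, 1.29 and 0.59 in untreated and 1.52, 1.41, 1.46, 1.5 and 1.64 in treated hearts. Every treated array lay above all 10 others. The difference from db/+ was 0.79 ± 0.14 (adjusted p = 0.00581), and that from untreated hearts was 0.69 ± 0.14 (unadjusted p = 0.0003, adjusted p = 0.385). Neu3, a sialidase that breaks gangliosides down, rose by 0.95 ± 0.15 (adjusted p = 0.00215). Smpd2, a neutral sphingomyelinase that releases ceramide, rose by 0.59 ± 0.09 (adjusted p = 0.00198). Acer2, an alkaline ceramidase, rose by 0.62 ± 0.16 (adjusted p = 0.0289) at its brightest probe, and its other probes gave -0.10 and 0.17. Sphk1, which makes sphingosine 1-phosphate, differed by 0.63 ± 0.13 (adjusted p = 0.0103) and by -0.12 after normexp. The count of 7 was 4 without treated array 1 and 4 without treated array 5. Acer2 did not pass without db/+ array 4 or treated array 1 or 5, with an adjusted p of up to 0.07188.

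**Figure D5:**
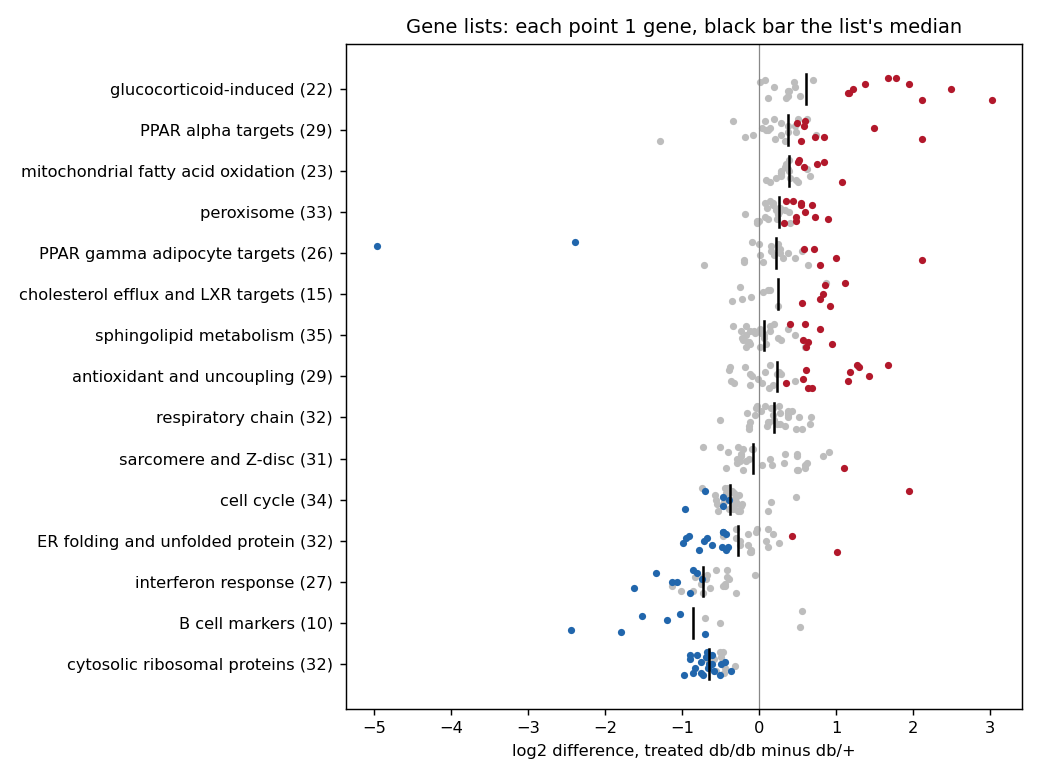
Log2 difference of treated db/db from db/+ hearts for each tested gene of 15 lists, with the number of genes in brackets, red and blue points for genes called higher and lower, grey for genes not called and a black bar at the list's median. The ribosomal list lies wholly below 0, with a median of -0.65, and the B cell and interferon medians are -0.86 and -0.72. Of 22 genes that glucocorticoids are known to induce 10 rose and none fell, with a median of 0.61. In untreated hearts 10 rose, with a median of 1.02. That list also holds Angptl4, Lcn2, Mt1, Cdkn1a and Sgk1, which the text gives under other lists.

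Hormones and receptors of the circulation changed singly more than as groups. Agt, the precursor of angiotensin, read 0.94 to 1.52 in db/+ hearts, 3.35 to 3.61 in treated hearts and 3.03 to 4.21 in untreated hearts. It rose by 2.26 ± 0.19 (adjusted p = 2.76e-05) in treated and 2.35 ± 0.18 in untreated hearts. Edn3, an endothelin peptide, was not above background on any db/+ array and was at least 3.49-fold higher in treated hearts (adjusted p = 0.00096). Aplnr, the receptor of apelin, read 4.05 to 5.22 in db/+ and 2.42 to 3.14 in treated hearts, a difference of -2.12 ± 0.23 (adjusted p = 0.000173). A dimmer probe of Aplnr gave 0.22, and after normexp the first gave -0.86 (adjusted p = 0.332). Its ligand Apln gave -0.29 ± 0.25 in treated hearts (adjusted p = 0.4933) and -1.31 ± 0.24 in untreated hearts (adjusted p = 0.00575). Between treated and untreated hearts Apln differed by 1.02 ± 0.25 (unadjusted p = 0.00117, adjusted p = 0.386).

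Fluid retention is a known side effect of thiazolidinediones. Of 20 tested genes of sodium, water and acid transport, 4 rose and 1 fell in treated hearts, and 3 rose and 2 fell in untreated hearts. Sgk1, a kinase that stimulates sodium transport and is induced by glucocorticoids, rose by 1.22 ± 0.20 (adjusted p = 0.0032). Atp1b1, a subunit of the sodium pump, rose by 0.69 ± 0.14 (adjusted p = 0.00998). Aqp1, the water channel of capillaries, read 1.94 to 2.74 in db/+ and 0.84 to 1.67 in treated hearts and fell by 1.11 on the log2 scale, with an SE of 0.21 (adjusted p = 0.00712). In untreated hearts the differences were 1.06 for Sgk1, 0.46 for Atp1b1 and -1.08 for Aqp1. After normexp 3 of the list rose and 2 fell, and without db/+ array 1 the genes that fell were 2.

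Of 33 genes of apoptosis 4 rose and 3 fell, with a median of -0.18. After normexp 1 fell, without treated array 1 the counts were 3 and 1, without treated array 5 they were 1 and 2, and without treated arrays 3 and 4 together 2 and 3. In untreated hearts, against the same db/+ arrays, 1 apoptosis gene rose and 5 fell, with a median of -0.09. Bcl2, which keeps mitochondria from releasing cytochrome c, read 1.61, 1.12, 1.06, 1.09 and 1.19 in db/+ and -0.13, -0.19, -0.28, -0.31 and -0.25 in treated hearts, which did not overlap, and differed by -1.43 ± 0.17 (adjusted p = 0.000389). Its relative Bcl2l1, also protective in its long form, rose by 0.89 ± 0.12 (adjusted p = 0.00107). Of 34 cell cycle and replication genes 1 rose, 5 fell and 30 had lower means, with a median of -0.37. The one that rose was the inhibitor Cdkn1a, at 1.94 ± 0.25 (adjusted p = 0.000517), while the related inhibitor Cdkn1c fell, at -0.95 ± 0.12 (adjusted p = 0.00065), but gave -0.0787 after normexp (adjusted p = 0.916). The replication clamp Pcna differed by -0.40 ± 0.08 (adjusted p = 0.0121). The 5 that fell were 1 with scaling between arrays, 3 without db/+ array 2, 2 without db/+ array 4, 11 without db/+ array 5 and 2 without treated array 1, 2 or 5. A further gene rose without db/+ array 2, untreated array 4, untreated array 5 or treated array 3. In untreated hearts, against the same db/+ arrays, 1 of the 34 genes rose and 7 fell, with a median of -0.21.

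Large rises were also those of Cyp2b13 at 3.76 ± 0.29 (adjusted p = 1.54e-05), Klk1b26 at 3.67 ± 0.29 (adjusted p = 1.76e-05), AI593442 at 3.65 ± 0.43 (adjusted p = 0.00035) and Cyp2b9 at 3.42 ± 0.33 (adjusted p = 6.39e-05). Cyp2b13 and Cyp2b9 encode cytochrome P450 enzymes and Klk1b26 a tissue kallikrein, families of near-identical genes that may share probe signal, and a further probe of Cyp2b13 gave 0.37 (adjusted p = 0.768). Hp, the hemoglobin-binding haptoglobin and one of the hepatocyte markers, rose by 2.66 ± 0.43 (adjusted p = 0.00329), which gave 1.74 after normexp (adjusted p = 0.0643). Tent5b, a poly(A) polymerase family member, read -2.44 to -1.94 in db/+, -0.81 to -0.01 in untreated and 0.23 to 0.83 in treated hearts, so none of the groups overlapped, and rose by 2.61 ± 0.17 (adjusted p = 3e-06). Cdo1, which begins the breakdown of cysteine, rose by 2.61 ± 0.26 (adjusted p = 9.11e-05) and Serpina3n, a protease inhibitor of the acute phase, by 2.44 ± 0.24 (adjusted p = 7.19e-05). Pacsin1, a membrane-bending adaptor, rose by 2.48 ± 0.44 (adjusted p = 0.00496), but a further probe gave 0.80 (adjusted p = 0.0853). Akap5, which anchors protein kinase A near its membrane targets, read 4.67 to 5.38 in db/+ and 2.50 to 3.17 in treated hearts and differed by -2.25 ± 0.18 (adjusted p = 2.63e-05), and by -0.85 after normexp (adjusted p = 0.315). Mmp13, a collagenase, differed by -2.95 ± 0.44 (adjusted p = 0.00175), with a signal above background on 4 treated arrays. Rarres1, a retinoid-induced membrane protein, differed by -1.62 ± 0.18 (adjusted p = 0.000173).

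For other genes no array of a group gave a signal above background. Cyp2b10, a cytochrome P450 of drug metabolism, was not above background on any db/+ array. Its heart-channel ratio came to 56.9-fold and that of its log2 ratios to 29.1-fold (adjusted p = 5.93e-05), so the size of the rise is uncertain and neither is given as a bound. Snhg11, a long noncoding transcript likewise unmeasured in db/+ hearts, came to 16.8-fold and 14.6-fold on the same scales (adjusted p = 0.000206), and a further probe gave a log2 difference of 1.64 that did not pass (adjusted p = 0.0552). Mstn, myostatin, was at least 9.66-fold higher (adjusted p = 1.54e-05). In the opposite direction Lrrc55, an auxiliary subunit of BK potassium channels, was at least 4.34-fold lower (adjusted p = 0.00101), and Xcl1, a chemokine of activated T and NK cells, at least 1.96-fold lower (adjusted p = 2.63e-05). All 5 of these genes differed from db/+ the same way in untreated hearts, with log2 differences of 4.94, 3.69, 4.07, -2.83 and -2.79 in the order given. After normexp Lrrc55 and Xcl1 did not pass, with adjusted p values of 0.191 and 0.7245.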

How the data were processed

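Per the file headers, the authors extracted both channels of each array with Feature Extraction 9.5.1.1, which subtracted background, normalized the dyes by LOWESS and wrote for each spot the deposited log10 ratio of the Cy5 (heart) to the Cy3 (reference) signal, with processed intensity values of each channel. The authors' value table of the series held the same ratios, with a largest difference of 0. Here the ratios were converted to log2, control spots and 6002 spots flagged as non-uniform were left out, and the rest of the 43379 spots were averaged per probe. Of 41174 probes, 27593 had a heart signal well above background on 4 of 5 arrays of a group and were tested, of which 24167 had a current symbol, 18572 of them by accession in RefSeq. Groups came from the sample titles.

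The 3 groups were fitted together with limma 3.58.1 in R 4.3.3 (lmFit and eBayes, 14 samples, 11 residual degrees of freedom), with treated arrays 3 and 4 averaged and Benjamini-Hochberg adjustment over all tested probes, and an adjusted p under 0.05 was called. Treated and untreated hearts share the db/+ arrays they are compared with. The steps were tested on simulated data. Hearts were extracted separately, and the number of arrays limits the precision.

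Named genes are the 15 largest called differences each way without overlap among measured genes, and up to 10 each way that are bounds. Fewer than 10 met the rule for bounds in the lower direction. The rule adds up to 4 called members of a list with its best known members and genes the study names for treated hearts. It also adds the 10 genes each way furthest from untreated hearts. The members, the 64 gene lists and the tests were chosen with earlier results of these data known, and lists are described by counts and medians. Alternatives were normexp with an offset of 50 and loess, the value table, scaling, other filters, slide and replicate blocks, only the 2 groups compared and leaving out arrays. After seeing the data, keeping flagged spots, requiring both channels above background on all arrays, and leaving out treated arrays 3 and 4 together were added. The R package data.table, version 1.17.8, read the files and consensus correlations used statmod 1.5.0. The text gives values for part of the genes that the rule names.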

Additional observations from a re-analysis of the deposited data

Results flagged for a closer look

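An array stood apart from the others of its group in 19 of 452 groups of 226 genes, and chance gives about 1 in 20. The number after each gene is the gap to the nearest array over the whole range of the group, with treated arrays 3 and 4 taken as 1 sample.

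On the db/+ arrays, array 1 was high for Bcl2 (0.766) and for Prnd, a relative of the prion protein (0.774), and low for Sdf2l1, a protein of the endoplasmic reticulum (0.719). Array 3 was high for Ms4a1 (0.865) and for Pik3r1, a subunit of PI3 kinase (0.742). Array 4 was the only db/+ array away from 0 for Ccdc192, Crisp1 and Klk1b16 (1 each), none of them above background in db/+ hearts, and was high for Wdr17 (0.785). Array 5 was low for Pcna (0.874).

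Among treated arrays, array 1 was high for Ptch1, the hedgehog receptor (0.879). Array 2 was high for Creld2 (0.834) and for Xcl1 (0.975), which was not above background there, and low for Txnip (0.83). The mean of arrays 3 and 4 was high for Cd83 (0.894) and Pcna (0.885) and low for Asah2, the neutral ceramidase (0.845). Array 5 was low for Cela1, a pancreatic elastase (0.889).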

How the results depend on the processing

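Against 2401 changed probes, normexp with loess gave 1342, treated arrays 3 and 4 as separate mice 3752, the slide as a fixed block 4, the slide as a random block 5126 (with a consensus correlation of -0.114), an adjusted p under 0.10 gave 4473, and leaving out treated arrays 3 and 4 together gave 1323. Leaving out any 1 array gave 1093 (without treated array 5) to 2886 (without db/+ array 1). A replicate block gave 2517, and since same-numbered arrays correlated at -0.00874 to 0.0325 the numbers pair no samples. The value table, scaling, either filter on dim probes, a fit of only the compared groups, flagged spots kept and both channels above background gave 1818 to 2596.

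Of 211 called genes named by the rule, normexp kept the call of 122, lost 84 and reversed 5, and the fixed slide block kept none, reversing 2 among them. Reversed differences under normexp were -0.118 for Chil3, 0.161 for Ighm, 0.308 for Pdia3, 0.0643 for S100b and -0.12 for Sphk1. With the slide block they were -0.0051 for Gys1, -0.0034 for Ptch1, 0.236 for Ryr1 and -0.591 for Slc2a4. Without the block Ryr1 gave -0.255 at its brightest probe (limma adjusted p = 0.435). Its other probes were called higher, at 2.37 (adjusted p = 0.0148) and 2.12 (adjusted p = 0.026), so the direction of Ryr1 depends on the probe. Ppara gave -0.0505 under scaling, -0.00014 without treated arrays 3 and 4, -0.0771 without db/+ array 2, -0.0551 without db/+ array 4 and -0.0112 without treated array 5. Leaving out any 1 array, Fabp4 ranged from -0.28 (without db/+ array 2) to 0.976 (without db/+ array 3) and Slc2a4 from -0.169 to 0.671 (the same arrays). The causes were not tested. Signals near background limit the size of a difference.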
